A study of Mus musculus with 15 samples.

Results

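The 10 genes described here encode the chemokines that draw neutrophils (*Cxcl1*, *Cxcl2*, *Cxcl3* and *Cxcl5*), their receptor (*Cxcr2*), the granulocyte growth factor and its receptor (*Csf3* and *Csf3r*), the paired proteins of calprotectin (*S100a8* and *S100a9*) and interleukin 1 beta (*Il1b*). They were chosen by name for their known ties to neutrophils, with earlier results of these data known. All 10 were found by symbol among the 18279 genes measured. The measurements were bulk RNA sequencing of 15 tumors that grew under the skin of female BALB/c mice, bought at 4 to 6 weeks of age, after injection of Renca cells in Matrigel. Renca cells are a kidney cancer line of this mouse strain. Tumors 1 to 5 came from control cells, tumors 6 to 10 from *Pbrm1* knockout clone 4 and tumors 11 to 15 from *Pbrm1* knockout clone 18. *Pbrm1* encodes a subunit of a chromatin remodeling complex. The records call the first group parental, whereas the paper used cells that had gone through a control knockout, and control is the word kept here. The cells had been edited with plasmids that carry Cas9 for a short time only, and each clone was grown from a single sorted cell. Each group was therefore 1 cell line grown as 5 tumors, and an effect of the genotype and a difference between lines cannot be told apart. The records mention both untreated mice and mice given an antibody to PD-1 without saying which of them bore these tumors.

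Neutrophils are short-lived white cells that leave the blood for inflamed tissue and for many tumors. The chemokines of the ELR group bind CXCR2 on the neutrophil and steer it, and tumor cells, macrophages and fibroblasts make them when interleukin 1, interleukin 17 or TNF activates NF-κB. G-CSF, the product of *Csf3*, drives the making and release of neutrophils from the bone marrow through the receptor encoded by *Csf3r*. S100A8 and S100A9 form calprotectin, which fills the cytosol of neutrophils and is also made by monocytes and by stressed keratinocytes. IL-1β comes mainly from monocytes, macrophages and neutrophils.

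The promoters of 3 ligand genes are shown first, since these genes are neighbors on chromosome 5 and their levels across tumors are compared further on. RefSeq promoter sequences on GRCm38.p6 were matched by symbol for 8 of the 10 genes, and *Cxcl5* and *Csf3* were not among them. The windows below run from 110 to 31 bases before the RefSeq start on the + strand, at chr5:90891135-90891214 for *Cxcl1*, chr5:90903789-90903868 for *Cxcl2* and chr5:90785991-90786070 for *Cxcl3*. The capitals mark the longest run of bases present in the 250 bases before the start of all 3 genes, 11 bases that read as a κB site, the kind of sequence that NF-κB proteins bind.
Cxcl1: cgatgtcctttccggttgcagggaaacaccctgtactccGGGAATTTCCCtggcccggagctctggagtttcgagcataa
Cxcl2: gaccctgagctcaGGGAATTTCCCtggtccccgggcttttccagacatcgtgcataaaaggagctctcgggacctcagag
Cxcl3: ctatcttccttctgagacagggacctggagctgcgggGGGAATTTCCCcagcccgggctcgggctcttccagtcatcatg
The run began 71 bases before the start of *Cxcl1*, 97 before that of *Cxcl2* and 73 before that of *Cxcl3*. On either strand it was present in 14 of 32851 promoters of 300 bases (0.0426%). Its first 8 bases, GGGAATTT, were present in 0.947% of promoters and in 1 further gene of the 10, *S100a9*, where they began 135 bases before the start. A second run of 8 bases, ATAAAAGG, lay between the first run and the start in all 3 ligand genes and in 1.76% of promoters. These matches describe the sequence only.

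Between 32924414 and 49099168 reads per tumor fell on genes. In the targeted gene *Pbrm1*, control tumors had normalized counts of 7451.5 to 9870.6 and knockout tumors 2483.8 to 3137.5 with no overlap, so every tumor lay on the side that its label gives. A normalized count is the number of reads on a gene divided by the size factor of its tumor. Averaged over the 15 tumors and divided by the exon length of the gene, the level was highest for *Il1b*, at 741 normalized counts per kilobase. *S100a9* followed at 494, *Cxcl1* at 225, *S100a8* at 158, *Cxcl2* at 124, *Csf3r* at 119, *Cxcl5* at 53.4, *Cxcl3* at 40.3 and *Cxcr2* at 23.3 per kilobase. *Csf3* had 0.646 per kilobase and at most 4 reads in any tumor. *Ly6g*, which encodes the defining surface protein of mouse neutrophils, had a normalized count of at most 2.3 in any tumor. The granule genes *Mpo* and *Elane* were not among the 18279 genes with values, so they could not be read.

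The first comparison asked whether the 10 genes differed between all 10 knockout tumors and the 5 control tumors, the contrast used in the paper. It was tested with limma on log2(normalized count + 1), as were the 3 comparisons between single groups, with Benjamini-Hochberg adjustment of p over the 18250 genes that were above 0 in any tumor. Of the 10 genes, 1 was lower in knockout tumors at an adjusted p under 0.05 (*Csf3r*), none was higher, and 22.1% of all tested genes passed in either direction. None of the 10 separated every knockout tumor from every control tumor, as 7.98% of tested genes did. Their median log2 difference was -0.29, against -0.02 over all tested genes. In clone 4 against control, 0 of the 10 passed the limma test at an adjusted p under 0.05, where 16.8% of tested genes did, and 1 of the 10 had an unadjusted p under 0.05. In clone 18 against control 2 passed, *Csf3r* and *Il1b*, both lower, where 24.7% of tested genes passed. In clone 18 against clone 4 only *Il1b* of the 10 passed, where 4.62% of tested genes did. Both clones were compared with the same 5 control tumors, so their results are not independent of each other. Nothing in the records says more about the tumors than that each is a separate sample. The p values weigh differences between groups against the spread between these samples. The comparison of all 10 knockout tumors with control treats the tumors of both clones as 1 group.

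**Figure D1:**
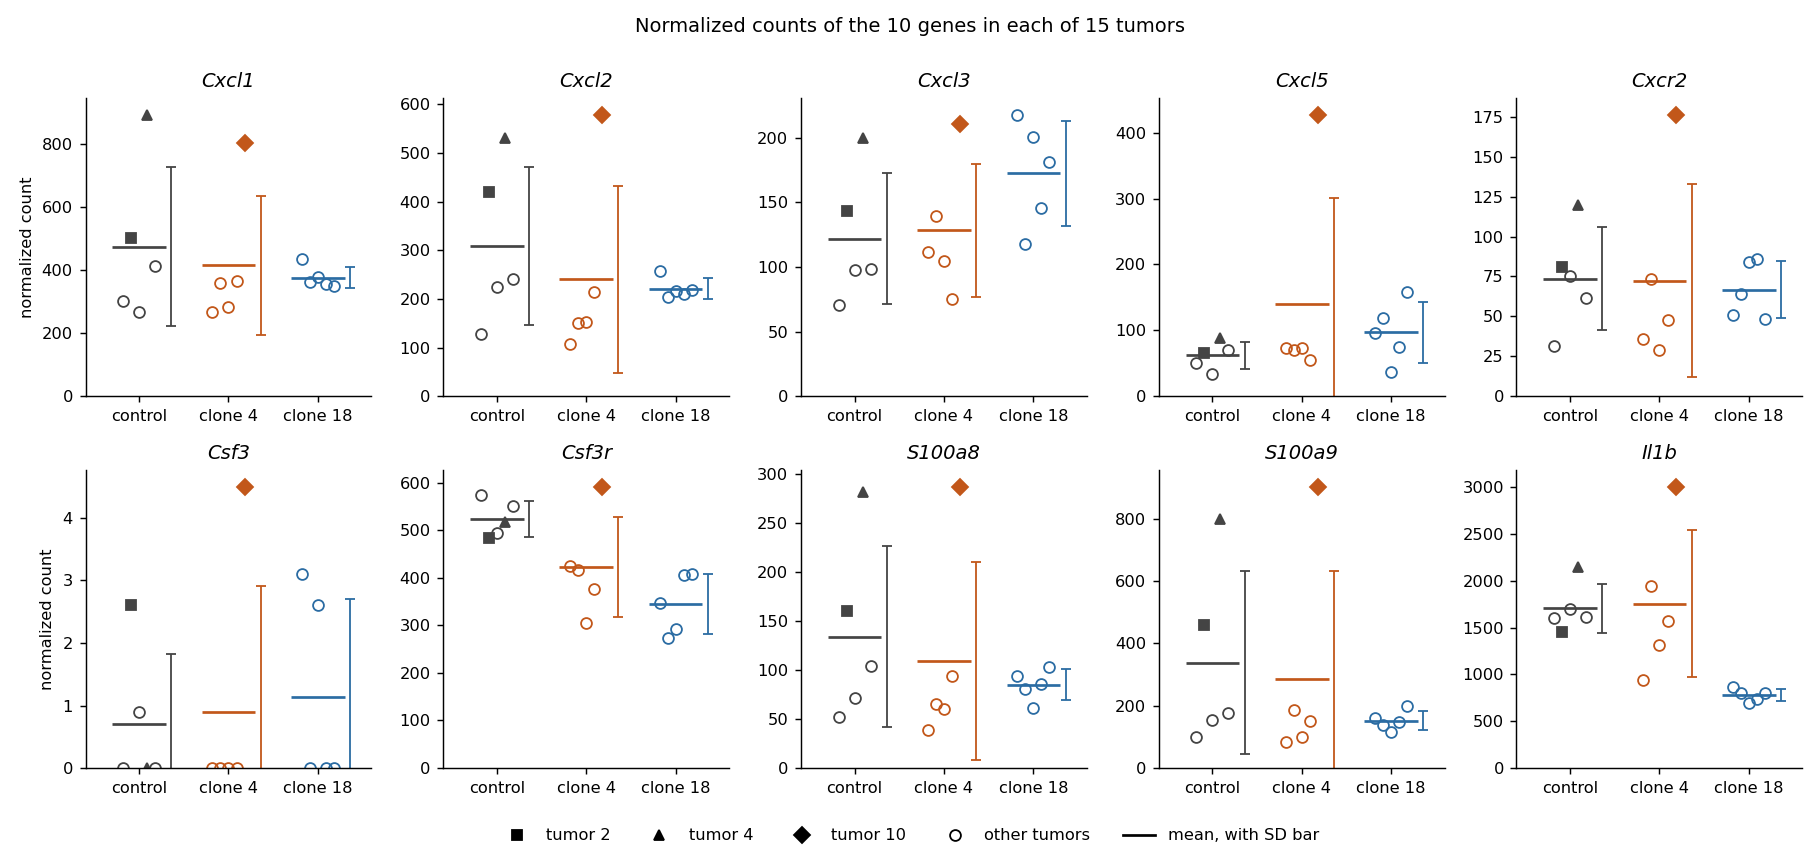
Normalized count of each of the 10 genes (vertical axis, from 0) in each tumor, by group (horizontal axis). Lines are group means and bars the SD of 5 tumors, drawn down to 0 where they would go below it. Tumors 2, 4 and 10 have filled symbols and are the 3 highest for *Cxcl1*, *Cxcl2*, *S100a8* and *S100a9*, whereas the 5 clone 18 tumors lie below all others for *Il1b*.

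Among the ligands, *Cxcl1* (ENSMUSG00000029380, chr5:90891241-90893115 in GENCODE M21 on GRCm38) had 300.6, 500.3, 267.1, 890.8 and 412.4 normalized counts in control tumors 1 to 5. Clone 4 tumors 6 to 10 had 268.1, 359.3, 283.5, 365.2 and 800.9, and clone 18 tumors 11 to 15 had 433.7, 361.7, 378.3, 355.8 and 349.3. All 3 groups overlapped, and tumors 4 and 10 stood well above the other 13. The control mean was 474 ± 251 (SD, n = 5), the clone 4 mean 415 ± 220 and the clone 18 mean 376 ± 34.1. The log2 difference of clone 4 from control was -0.18 with a 95% interval of -0.80 to 0.45, and that of clone 18 was -0.20 with an interval of -0.82 to 0.43. Without tumor 4 both differences changed sign, to 0.09 and 0.06.

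*Cxcl2* (ENSMUSG00000058427, chr5:90903871-90905938) encodes MIP-2, a ligand of CXCR2 that activated macrophages release. Control tumors 1 to 5 had 128.8, 419.2, 225.3, 530 and 241.1 normalized counts. Clone 4 tumors 6 to 10 had 108, 150, 152.2, 213.9 and 578.1, and clone 18 tumors 11 to 15 had 257.2, 204.2, 217.3, 209.5 and 219.4. The same tumors 2, 4 and 10 were highest, 4 of 5 clone 4 tumors were below 4 of 5 control tumors, and clone 18 lay within the control range. The log2 difference was -0.47 (95% interval -1.28 to 0.35) for clone 4 and -0.31 (-1.13 to 0.50) for clone 18, with limma adjusted p of 0.475 and 0.609.

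*Cxcl3* (ENSMUSG00000029379, chr5:90786103-90789600) and *Cxcl5* (ENSMUSG00000029371, chr5:90759360-90761624) did not follow the same order of tumors. *Cxcl3* had 70.8, 143.6, 97.4, 199.5 and 98.3 normalized counts in control tumors, 111.9, 139.5, 104.4, 75.1 and 210.5 in clone 4, and 217.4, 118.1, 200.3, 145.3 and 181.4 in clone 18. The clone 18 mean of 173 ± 40.5 was the highest of the 3 groups, against 122 ± 50.6 in control tumors and 128 ± 51.4 in clone 4, but the groups overlapped. The log2 difference of clone 18 from control was 0.56 (95% interval -0.05 to 1.16, limma adjusted p = 0.174). Without tumors 2, 4 and 10, an alternative added after the data were seen, it was 0.93 with a limma adjusted p of 0.0139. In the other 25 of 26 alternatives it did not pass. The log2 difference of clone 18 from clone 4 was 0.48 (-0.13 to 1.08), and that of clone 4 from control was 0.08 (-0.52 to 0.69).

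*Cxcl5*, which encodes the chemokine also called LIX in mice, was high in a single clone 4 tumor. Control tumors had 34.3 to 88.5 normalized counts, 4 clone 4 tumors 54.6 to 73.3, and tumor 10 had 426.6. Clone 18 tumors ranged from 36.7 to 159 with a median of 95.9, and 3 of them were above every control tumor. The log2 difference from control was 0.71 (95% interval -0.31 to 1.73) for clone 4 and 0.56 (-0.47 to 1.58) for clone 18, and neither passed the limma test. Without tumors 10 and 13 the clone 18 difference was 0.86 with a limma adjusted p of 0.0325, and in the other 25 of 26 alternatives it did not pass. Tumor 13 had the lowest clone 18 value, and tumor 10 enters this comparison only through the shared estimate of the spread. *Cxcl1*, *Cxcl2* and *Cxcl3* are close copies of one another, and how the authors' counting split reads between them is not given in the sources used here.

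*Cxcr2* (ENSMUSG00000026180, chr1:74153989-74161246) encodes the receptor that the ligands share. Control tumors had 31.3, 81, 75.1, 119.9 and 61.3 normalized counts, clone 4 tumors 35.7, 73.6, 28.8, 47.8 and 176, and clone 18 tumors 51, 64, 83.8, 86.2 and 48.1. The groups overlapped throughout, and the highest values were again in tumors 10 and 4. The means were 73.7 ± 32.2, 72.4 ± 60.4 and 66.6 ± 17.8. The log2 difference from control was -0.22 (95% interval -1.11 to 0.67) for clone 4 and -0.06 (-0.95 to 0.83) for clone 18. With 5 tumors a group, changes within these intervals remain compatible with the data. Of the 9 genes in the wider list of ELR chemokines and their receptors, 8 were in the table and 0 passed the limma test at an adjusted p under 0.05 in any of the 4 comparisons. Of all tested genes, 22.1% passed in knockout against control, 16.8% in clone 4, 24.7% in clone 18 and 4.62% between the clones. Besides the genes above, the 8 were *Ppbp*, *Cxcl15* and the decoy receptor *Ackr1*, all at 33.7 normalized counts or less.

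*Csf3* (ENSMUSG00000038067, chr11:98701263-98703629) was at 0 in 3 control tumors, 4 clone 4 tumors and 3 clone 18 tumors. The others had 2.6 and 0.9 normalized counts in control tumors 2 and 3, 4.5 in tumor 10, and 3.1 and 2.6 in tumors 11 and 13. These values stand for 4 reads in tumor 10 and 3 or fewer in the rest, so no fold is given, and differences in *Csf3* were not detectable at this depth.

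*Csf3r* (ENSMUSG00000028859, chr4:126024550-126044440), the receptor for G-CSF on neutrophils and on some monocytes, was lower in the knockout tumors. Control tumors 1 to 5 had 574.5, 482.7, 493.3, 516.6 and 550.9 normalized counts. Clone 4 tumors 6 to 10 had 424.3, 416.6, 305.4, 376.6 and 591.5, and clone 18 tumors 11 to 15 had 347, 273.1, 291.9, 405 and 408.6. Of the 10 knockout tumors 9 were below every control tumor, and tumor 10 was above them all. The log2 difference of knockout from control was -0.48 (standard error 0.14, limma adjusted p = 0.0225, exact permutation p = 0.00966), a level of 71.8% of the control on that scale. Without control tumor 1 the limma adjusted p was 0.0612, and without control tumor 5 it was 0.0542.

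By clone, *Csf3r* was lower in clone 18 than in control tumors by a log2 difference of -0.62 (95% interval -0.94 to -0.29, limma adjusted p = 0.00713, exact permutation p = 0.00794). All 5 clone 18 tumors were below all 5 control tumors, as happened in one direction or the other for 17.1% of tested genes. In clone 4 the difference was -0.34 (-0.66 to -0.02, limma adjusted p = 0.148), with 4 of 5 tumors below every control tumor, and complete separation occurred in 14.0% of tested genes but in 0 of the 10. Without tumor 10 the clone 4 difference was -0.47 with an adjusted p of 0.0262. The 2 clones did not differ past the threshold in *Csf3r* (-0.28, -0.60 to 0.04). In bulk RNA, fewer cells that express a gene and less RNA in each of them cannot be told apart.

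*S100a8* (ENSMUSG00000056054, chr3:90668978-90670035) and *S100a9* (ENSMUSG00000056071, chr3:90692632-90695721) ran together from tumor to tumor. *S100a8* had 52.2 to 282.4 normalized counts in control tumors (median 104.7), 38.6 to 287.4 in clone 4 (median 65.9) and 61.5 to 103 in clone 18 (median 86.2). *S100a9* had 99.8 to 800.1 in control tumors (median 175.5), 82 to 903.4 in clone 4 (median 151.3) and 116.5 to 198.2 in clone 18 (median 147.3). For both genes the groups overlapped fully, and the top of the control and clone 4 ranges was set by tumors 4 and 10, with tumor 2 next at 160.3 for *S100a8* and 458 for *S100a9*. The log2 difference of knockout from control was -0.41 (95% interval -1.25 to 0.42) for *S100a8* and -0.60 (-1.64 to 0.44) for *S100a9*. Neither gene passed the limma test in any comparison, and the intervals reach below a change of 1 log2 unit. The coefficient of variation of *S100a9* was 86.8% for the control group, 123% for clone 4 and 19.97% for clone 18, and that of *Cxcl2* was 52.5%, 80.1% and 9.41%.

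**Figure D2:**
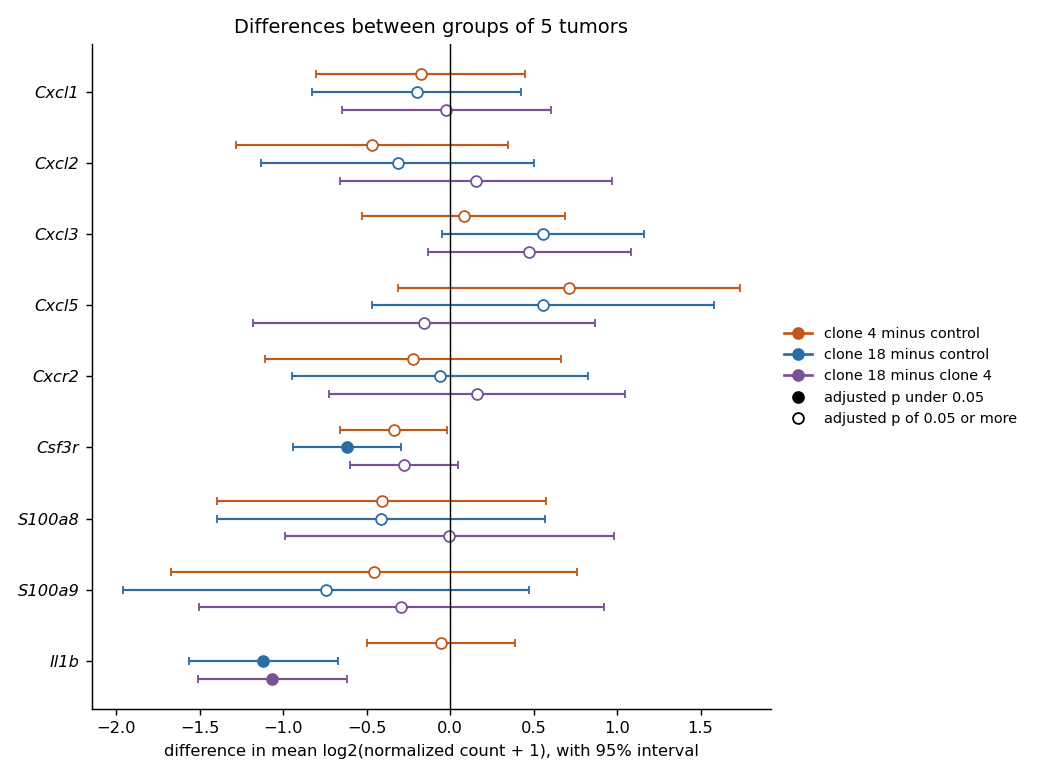
Differences between group means of log2(normalized count + 1) (horizontal axis) with 95% intervals for 9 of the genes (vertical axis), for 3 comparisons. Filled points passed an adjusted p of 0.05 and open points did not. Only *Csf3r* in clone 18 against control and *Il1b* in clone 18 against either other group are filled.

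*Il1b* (ENSMUSG00000027398, chr2:129364570-129371139) had the largest difference that passed the test among the 10 genes, and of the 2 clones it was lower in clone 18. Control tumors 1 to 5 had 1601.5, 1454.1, 1701.6, 2149.2 and 1615.6 normalized counts. Clone 4 tumors 6 to 10 had 940.2, 1947.5, 1317, 1574.7 and 3004.3, and clone 18 tumors 11 to 15 had 861.3, 801, 697.7, 735.7 and 802.7. Every clone 18 tumor was below every control and every clone 4 tumor, a pattern shared by 1.41% of tested genes. Clone 18 differed from control by -1.12 on the log2 scale (standard error 0.21, limma adjusted p = 0.00101, exact permutation p = 0.00794), a level of 46.1% of the control. It differed from clone 4 by -1.06 (standard error 0.21, limma adjusted p = 0.00622, exact permutation p = 0.00794), where complete separation occurred in 5.52% of tested genes. The exact p of 0.00794 is the smallest that 5 against 5 tumors can give.

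Clone 4 did not differ past the threshold from control in *Il1b*, with a log2 difference of -0.05 (95% interval -0.50 to 0.39), and its values spread from below to above the control range. The comparison of knockout with control, which averages the clones, gave -0.59 (-1.18 to 0.01, limma adjusted p = 0.155). Without tumor 10 the pooled difference was -0.74 with an adjusted p of 0.0188. *Il1b* overlaps the antisense gene *Il1bos* on the other strand, and the strand setting of the counting is not given in the sources used here, so their reads cannot be told apart.

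Macrophage genes moved in the same comparisons, and their part in the result for *Il1b* was not tested. Of 15 monocyte and macrophage markers, 9 were lower and 2 higher in clone 18 than in control tumors (73.3%, against 24.7% of all tested genes). Their summed level was 74429.3 to 95087.2 normalized counts in clone 18, 85121.4 to 103507.9 in clone 4 and 97043.5 to 137142.7 in control tumors. *Csf1r*, which encodes the receptor that macrophages need to survive, had a log2 difference of -0.80, the fractalkine receptor gene *Cx3cr1* -1.16, and the complement genes *C1qa*, *C1qb* and *C1qc* -0.51, -0.59 and -0.69. *Adgre1*, which encodes F4/80, had -0.61, whereas the 2 that were higher, named after their values were seen, were *Cd68* (0.38) and *Cd14* (0.31). In clone 18 against clone 4 the 15 had a median log2 difference of -0.26, with 13 negative, and 1 passed the limma test, *Cd68*, which was higher (0.52). *Csf1r* had -0.40 there (limma adjusted p = 0.0656), and all 5 clone 18 tumors were below all 5 clone 4 tumors. Per 100 normalized counts of *Csf1r*, *Il1b* had 7.51 to 17.0 in control tumors (median 10.4), 7.62 to 27.8 in clone 4 (median 13.8) and 7.44 to 9.76 in clone 18 (median 8.70). On this ratio the 3 groups overlapped. The result of such a ratio depended on the marker. Per 100 normalized counts of *Cd68*, *Il1b* had 10.2 to 16.2 in control tumors, 8.72 to 24.1 in clone 4 and 4.13 to 5.37 in clone 18, which was below every other tumor. Over the summed level of the 15, the ratio times 100 was 1.17 to 2.13 in control tumors, 0.929 to 3.15 in clone 4 and 0.842 to 1.03 in clone 18, below the control tumors and overlapping clone 4. These ratios were computed after the data were seen.

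**Figure D3:**
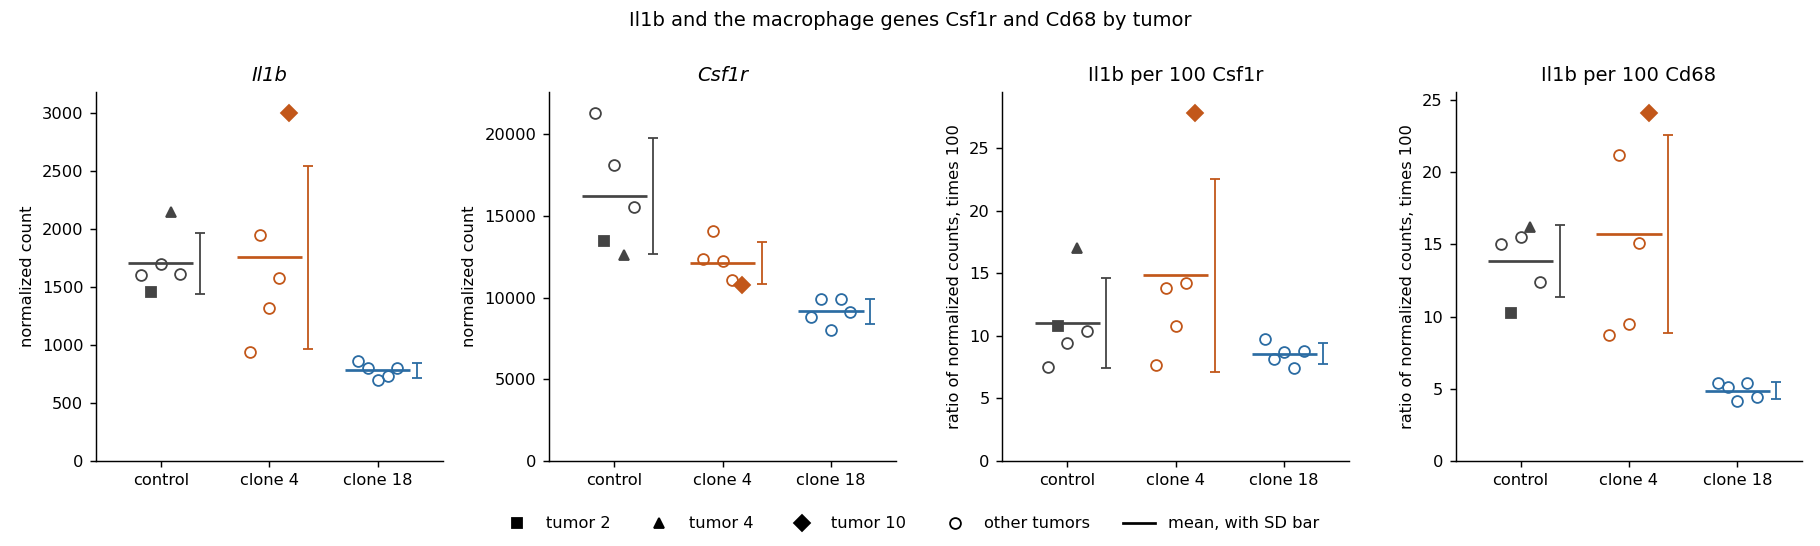
Normalized counts of *Il1b* and *Csf1r* and the ratios of *Il1b* to *Csf1r* and to *Cd68* times 100 (vertical axes, from 0) in each tumor by group (horizontal axes). Lines are means and bars the SD of 5 tumors. Clone 18 lies below both other groups for *Il1b*, for *Csf1r* and for the ratio to *Cd68*, and the groups overlap in the ratio to *Csf1r*.

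Genes that act upstream of the chemokines were taken as a list of 24 inducers, receptors and NF-κB regulators, of which 21 were in the table. In knockout against control 2 were higher and 3 lower (23.8% of the 21), close to the 22.1% of all tested genes. The higher ones were *Osmr*, the oncostatin M receptor gene, with a log2 difference of 0.84 (limma adjusted p = 2.77e-05), and *Il1rap*, which encodes the accessory chain of the IL-1 receptor, with 0.87 (limma adjusted p = 0.000766). Both were above every control tumor in all 10 knockout tumors, *Osmr* at 2201.7 to 3924.5 against 1463.3 to 1995.7 normalized counts. Complete separation in either direction occurred in 7.98% of tested genes. The lower ones were *Il1r1*, the signaling IL-1 receptor gene, at -0.66, the IL-17 receptor gene *Il17ra* at -0.31 and oncostatin M itself, *Osm*, at -0.94, whose call was lost in 17 of 26 alternatives. *Il17ra* was below every control tumor in all 10 knockout tumors, and *Il1r1* and *Osm* overlapped. In clone 18 against control 8 of the 21 passed (38.1%, against 24.7% of all tested genes), 3 higher and 5 lower. Among these were *Il1b* and, named after its values were seen, *Il1a*, the gene of IL-1 alpha, with mean normalized counts of 134 ± 26.7 for the control, 96.7 ± 38.3 for clone 4 and 58.5 ± 30.1 for clone 18 (log2 difference -1.33, limma adjusted p = 0.0110). The inhibitor gene *Nfkbia*, which NF-κB itself induces, had a log2 difference of 0.16 in knockout against control and did not pass the test.

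Of 8 colony stimulating factor and receptor genes, 2 were lower in knockout tumors (*Csf1r* and *Csf3r*) and none was higher, a share near the 22.1% of all tested genes. *Csf2*, the GM-CSF gene, named after its values were seen, had 54.2 ± 21.7, 57.1 ± 23.3 and 55.7 ± 11.2 normalized counts in control, clone 4 and clone 18 tumors.

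The wider list of 31 neutrophil markers, which includes *Csf3r*, *Cxcr2*, *S100a8* and *S100a9*, held 25 genes with a mean of at least 10 normalized counts. In knockout against control 7 of the 31 were lower and 0 higher. This share of 22.6% is close to that of all tested genes (22.1%), of which 1684 were higher and 2356 lower. The median log2 difference of the list was -0.46 against -0.02 over all tested genes. The 5 with the smallest adjusted p were *Padi4*, *Lcn2*, *Stfa3*, *Ly6g* and *Csf3r*. *Padi4*, which encodes the enzyme that citrullinates histones in neutrophil extracellular traps, had 515.4 to 706.3 normalized counts in control tumors and 105.1 to 198.2 in knockout tumors (log2 difference -2.14, limma adjusted p = 2.54e-08). *Lcn2*, the neutrophil gelatinase-associated lipocalin gene, which many epithelial cells also express, was lower by a log2 difference of -1.60, and the stefin gene *Stfa3* by -2.20. *Ly6g* was called on 0 to 2 reads and is not read further.

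These genes did not share one order of tumors. *Padi4* was low in every knockout tumor, tumor 10 included (148.2), and *Stfa3* was low there too (6.7 against 31.4 to 80.1 in control tumors), while tumor 10 was the highest tumor of all for *S100a8* and *S100a9*. *Lcn2* was 1608.6 in tumor 10 and 353.9 to 569.5 in the other knockout tumors. In clone 4 against control 3 of the 31 passed (9.68%, against 16.8% of all tested genes), all lower (*Padi4*, *Stfa3* and *Lcn2*). Against control, 7 passed in clone 18, all lower (22.6%, against 24.7%), and in clone 18 against clone 4 none in the limma test, against 4.62%. In clone 18 against control 9 of the 31 had a positive log2 difference, and 0 of these passed. Among them *Mmp9*, named after its values were seen, had 324.5 to 1541.7 normalized counts in clone 18 and 130.8 to 229.7 in control tumors. Complete separation of these groups occurred in 17.1% of tested genes.

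**Figure D4:**
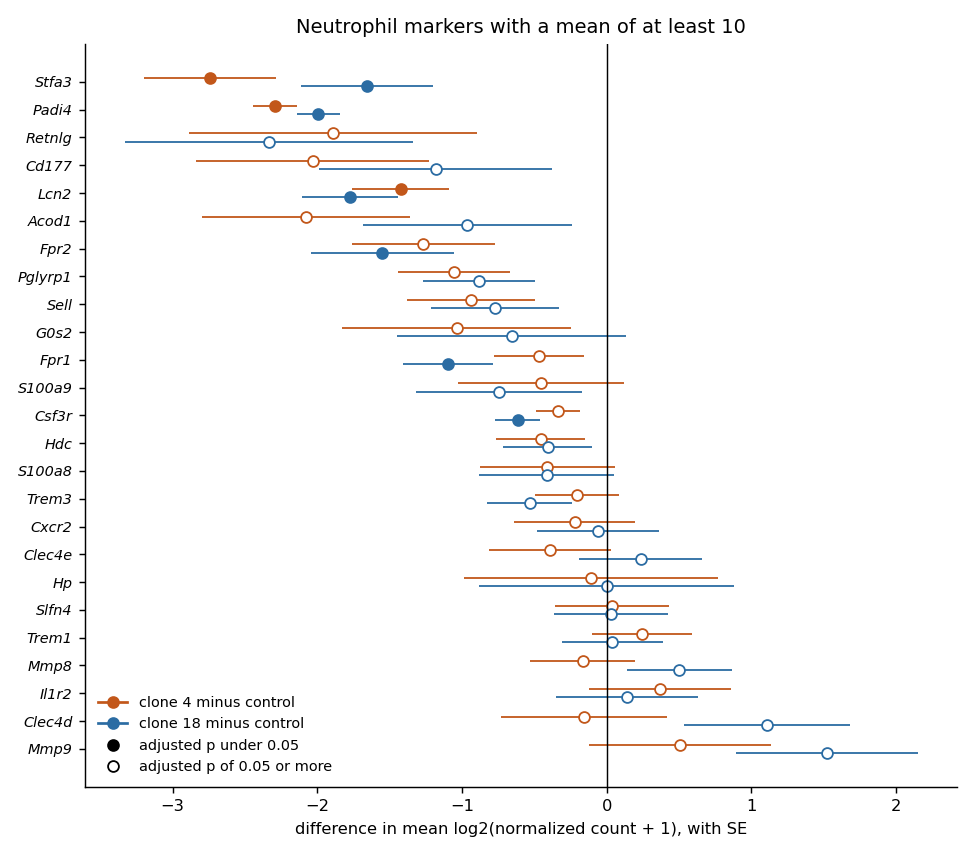
Log2 differences from control with their standard errors (horizontal axis) for the 25 neutrophil markers with a mean of at least 10 normalized counts (vertical axis), for clone 4 and clone 18. Filled points passed an adjusted p of 0.05. *Padi4*, *Stfa3* and *Lcn2* are filled in both clones, and *Csf3r*, *Fpr1* and *Fpr2* in clone 18.

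Across the 15 tumors the levels of several of the 10 genes ran in parallel. Tumors 2, 4 and 10 were the 3 highest for 4 of the 9 genes whose mean was at least 10 (*Cxcl1*, *Cxcl2*, *S100a8* and *S100a9*). The same 3 tumors led 156 of 16494 such genes (0.946%). Among 21 other neutrophil markers with that mean they led 4, named after their values were seen: *Retnlg*, *Trem1*, *Hdc* and *G0s2*. Tumor 10 alone was the highest for 7 of the 9 genes, all but *Cxcl1* and *Cxcl3*, against 9.17% of genes. The lowest of the 3 tumors was 2.31 times the highest of the other 12 for *S100a9*, 1.63 times for *Cxcl2*, 1.53 times for *S100a8* and 1.15 times for *Cxcl1*. These tumors were singled out by the values themselves, and belong to 2 of the 3 groups. Tumor 10 also differed from its group over genes in general. The chi-square per degree of freedom between the reads of 2 tumors was 89.0 to 164 for tumor 10 against tumors 6 to 9. Among tumors 6 to 9 it was 21.3 to 53.9. Tumor 13 also lay apart in its group, at 67.3 to 86.1 against the other clone 18 tumors, which had 19.1 to 44.2 among themselves. The 10 highest genes of tumor 10 held 12.2% of its normalized counts, the largest share of the 15 tumors, and tumor 13 was next at 11.99%.

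**Figure D5:**
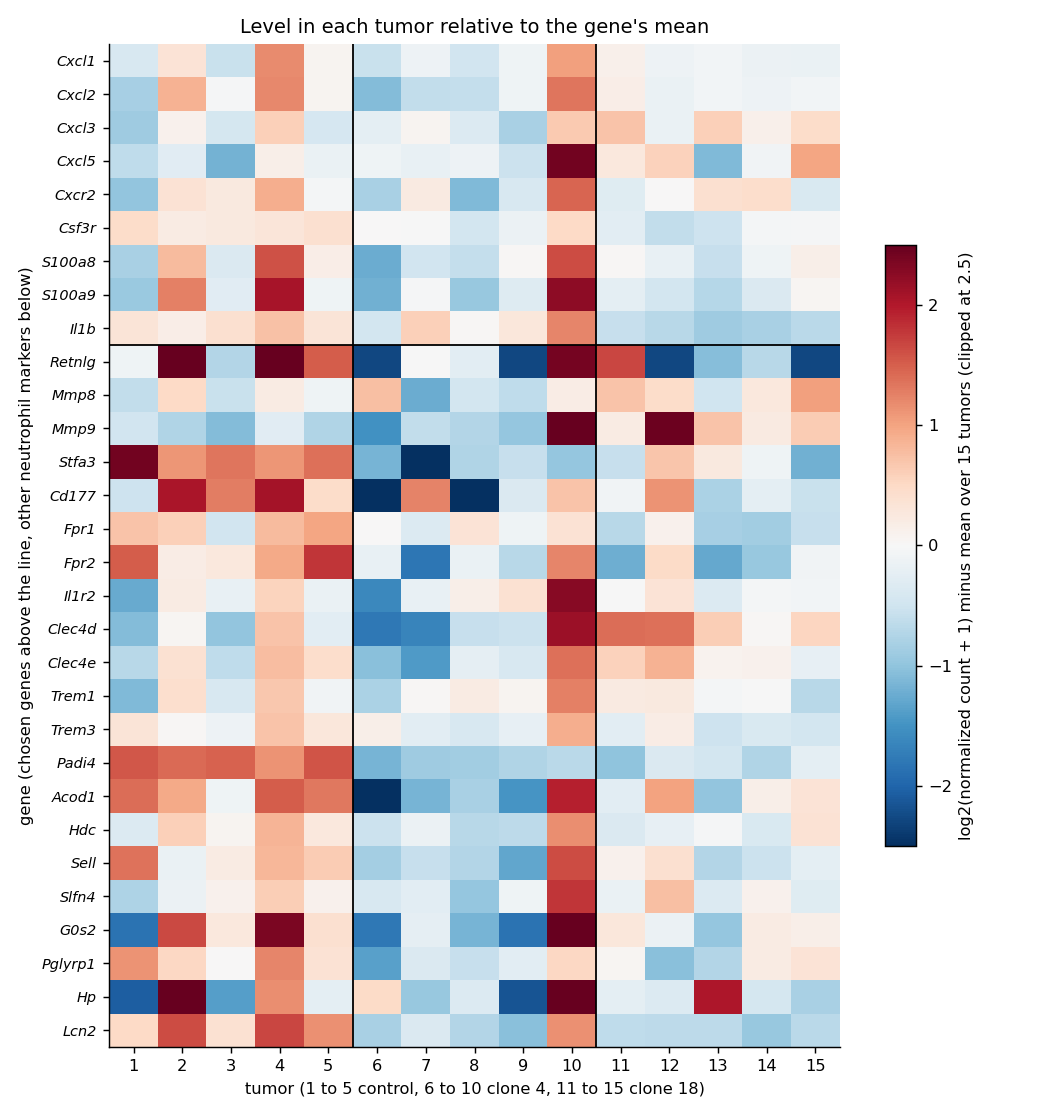
Level of 9 of the genes (above the horizontal line) and of 21 other neutrophil markers (below it) in each of 15 tumors (columns), as log2(normalized count + 1) minus the mean of the gene, clipped at 2.5. Red is above and blue below the mean. Tumors 4 and 10 are red for most rows, tumor 2 for many, and *Padi4* is red in the 5 control tumors only.

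As a description over the 15 tumors, which share 1 normalization, Pearson's r on the log2 scale was 0.96 between *Cxcl2* and *S100a8* and 0.96 between *S100a8* and *S100a9*. Without tumors 2, 4 and 10 these were 0.87 and 0.84 over 12 tumors. Among all genes that reached this mean, the 5 most like *Cxcl2* were *S100a8*, *S100a9*, the matricellular gene *Cyr61*, *Ier3* and the chemokine gene *Ccl3* (r from 0.91 to 0.96). For *Cxcl1* they were *S100a8*, *S100a9*, *Cyr61*, *Cxcl2* and *Hbegf*, with r from 0.89 to 0.94, but over the 12 tumors these fell to between 0.54 and 0.71. *Cxcl3* was closest to *Nfkbia*, *Fth1*, *Slc3a2*, *Junb* and *Crtap* (r from 0.83 to 0.87), and its r with its neighbors *Cxcl1* and *Cxcl2*, which carry the same 11 bases before their starts, was 0.62 and 0.58. *Cxcl5* was closest to *Pygl*, *Vps37c*, *Hk1*, *Impa2* and *Acap1*, with r from 0.84 to 0.86.

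*Cxcr2* was closest to the myeloid receptor gene *Cd300lf* (0.89), *Pvt1*, *Slfn4*, *G0s2* and *P2ry2*. *Csf3r* stood apart from the other neutrophil genes, with r of 0.43 with *S100a8*, 0.51 with *S100a9* and 0.31 with *Cxcr2*. It was closest to *Il11*, *9930111J21Rik1*, *Plscr3*, *Maml2* and *A230103J11Rik* (0.88 to 0.89). *Il1b* was closest to *Eif2b5*, *Tuft1*, *Tnfrsf12a*, *Ifrd1* and *Borcs7* (0.89 to 0.93), and had r of 0.71 with *Csf3r*, 0.62 with *S100a9*, 0.44 with *Cxcl2* and -0.14 with *Cxcl3*. Genes that differ between the groups have part of their r from those differences. After subtraction of each group's mean, *Il1b* and *Cxcl2* had r of 0.72, and *Il1b* and *Eif2b5* 0.79. Without tumors 2, 4 and 10, and without that subtraction, *Il1b* had r of -0.23 with *Cxcl2* and 0.95 with *Eif2b5*. *Il1b* then had 0.59 with *Csf3r*, 0.13 with *S100a9* and -0.69 with *Cxcl3*. Differences between the groups remain in these later values, and r with both steps together was not computed.

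Markers of the other cells that could make these transcripts were read in the same way. Keratinocytes make S100A8 and S100A9, and their basal keratin genes *Krt5* and *Krt14* were at most 9 normalized counts in any tumor. Of 18 keratinocyte markers only 7 were in the table, and 2 of these were lower in knockout tumors (28.6%, against 22.1% of all tested genes). They were *Krt17*, with 318 to 502 normalized counts in control and 24.1 to 153.8 in knockout tumors, and *Trp63*, whose call was lost in 14 of 25 alternatives. Against control, clone 18 had 1 lower, *Krt17*, and 1 higher, the cornified envelope gene *Sprr1b* (28.6% of the 7, against 24.7% of all tested genes). *Sprr1b* had 87.2 to 108.3 normalized counts against 10.2 to 52.9 (log2 difference 1.79, limma adjusted p = 0.00825). Against clone 4, *Sprr1b* (1.96) and the related *Sprr1a* (2.34) were higher in clone 18, calls lost in 1 and 2 of 26 alternatives. These were 28.6% of the 7, against 4.62% of all tested genes. Of 13 granule genes only 4 were in the table, and of these *Lcn2* alone was lower in knockout against control (25%, near the 22.1% of all tested genes). Of 8 NADPH oxidase and myeloid integrin genes, 4 were lower in that comparison and 0 higher (50%, against 22.1% of all tested genes). In the same comparison 8 of the 15 monocyte and macrophage markers were lower and 1 higher (60%). The platelet gene *Itga2b*, the red cell gene *Slc4a1* and the eosinophil gene *Alox15* were higher, each the only one of its list. They made up 25%, 12.5% and 20% of the genes tested in those lists, against 22.1% of all tested genes. Of 9 mast cell and basophil markers 0 passed the limma test. The part of these cells in the values of the 10 genes was not tested.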

How the data were processed

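RNA from 15 Renca tumors was sequenced by the study. The authors aligned reads with TopHat2 to mm10, counted them with HTSeq and normalized them with DESeq. The deposited values are a normalized signal per gene and tumor, rounded to 0.1, and 0 columns were left unassigned. Of the values below 8000, at least 99.98% in each tumor lay within 0.051 of a whole multiple of that tumor's smallest step, which gave back whole reads. Intervals are for differences between group means and rest on the spread between tumors.

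Tests used limma 3.58.1 with trend on log2(value + 1) over 18250 genes (R 4.3.3), with 10 knockout against 5 control tumors in one fit and the 3 groups in another. Two-sided exact permutation tests used 3003 or 252 splits. Alternatives were a pseudocount of 0.1 or 5, a minimum mean of 10, upper quartile and quantile scaling, limma without trend, least squares, the count models of edgeR 4.0.16 and DESeq2 1.42.0 run on recovered reads, each tumor left out, and tumors 10 and 13 left out. The fits were tested on simulated data. The genes and the 12 marker lists were chosen with earlier results of these data known. Named are the 10 genes, *Pbrm1*, at most the 5 smallest adjusted p per list, *Ly6g*, *Mpo*, *Elane*, *Adgre1*, *Csf1r*, *Krt5* and *Krt14*, and the 5 genes most like each of the 10, plus those the text gives as named later and values set beside a result. The deposited list holds gene symbols only, and positions are from GENCODE M21 on GRCm38.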

Additional observations from a re-analysis of the deposited data

Results flagged for a closer look

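In clone 4, tumor 10 stood apart on the high side in 6 of the 10 genes by Dixon's gap test, with 800.9 normalized counts of *Cxcl1*, 578.1 of *Cxcl2*, 426.6 of *Cxcl5*, 287.4 of *S100a8* and 903.4 of *S100a9*. The sixth was *Csf3*, at 4.5 normalized counts, which are 4 reads. In clone 18, tumor 11 stood apart for *Cxcl2*, at 257.2. In all 7 of 30 groups had a tumor apart, where the nominal rate of the test gives 1.5. That rate assumes normally distributed values, which normalized counts need not follow. A group with reads in 1 tumor only, such as *Csf3* in clone 4, is always flagged. Genes that run together are also not independent, so no excess over chance is read from this count. The log2 difference in *Il1b* between clone 18 and clone 4 was -1.06, past the threshold of the limma test between the clones.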

How the results depend on the processing

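In the comparisons of clone 18 with control and with clone 4, *Il1b* kept its direction and its call in all 26 alternatives, from -1.17 to -1.03 and from -1.26 to -0.80, as did *Csf3r* in clone 18 against control (-0.68 to -0.54). The number of the 10 genes past the threshold in knockout against control, 1 in the reported fit, was 0 to 2 with a tumor left out (0 without control tumor 1 or 5, 2 without tumor 10) and 2 without tumors 10 and 13. In clone 4 against control, 0 as reported, it was 0 to 1 with a tumor left out (1, *Csf3r*, without tumor 10) and 1 without tumors 10 and 13. Over all genes, knockout against control gave 2684 calls without tumors 2, 4 and 10, an alternative added after seeing the data, against 4040, and clone 18 against clone 4 gave 1359 with DESeq2 against 844. Quantile normalization turned 1684 higher and 2356 lower genes in knockout against control into 2265 and 1971, 1240 and 1831 in clone 4 into 1645 and 1578, and 1901 and 2598 in clone 18 into 2455 and 2142. The differences that did not pass the test often changed sign. In clone 18 against clone 4, DESeq2 gave -0.11 for *Cxcl2* and -0.10 for *Cxcr2*, edgeR -0.096 and -0.093, and upper quartile scaling 0.018 for *S100a8*. In clone 4 against control *Il1b* was 0.044 with DESeq2 and 0.052 with edgeR. Without tumors 10 and 13, *Cxcl1*, *Cxcl5*, *S100a8* and *S100a9* in clone 18 against clone 4 were 0.24, 0.68, 0.55 and 0.37, and *Cxcl3* in clone 4 against control -0.12. Without tumors 2, 4 and 10, *Cxcl1*, *Cxcr2* and *S100a8* in knockout against control were 0.11, 0.049 and 0.0035. Then *Cxcl1*, *Cxcl2*, *Cxcr2*, *S100a8* and *S100a9* in clone 18 against control were 0.22, 0.21, 0.30, 0.20 and 0.10, and *Cxcl1*, *Cxcl5*, *S100a8* and *S100a9* in clone 18 against clone 4 were 0.24, 0.37, 0.43 and 0.28. With each tumor left out, the ranges that crossed 0 were, for *Cxcl1*, -0.36 to 0.074 in knockout against control, -0.44 to 0.085 in clone 4, -0.37 to 0.062 in clone 18 and -0.15 to 0.24 between the clones. For *Cxcr2* they were -0.41 to 0.063, -0.62 to 0.024, -0.33 to 0.14 and, between the clones, -0.085 to 0.56. Between the clones the ranges were -0.063 to 0.54 for *Cxcl2*, -0.37 to 0.37 for *Cxcl5*, -0.28 to 0.43 for *S100a8* and -0.58 to 0.28 for *S100a9*. In clone 4 against control they were -0.12 to 0.28 for *Cxcl3* and -0.28 to 0.14 for *Il1b*. The cause of these changes was not tested. No paired analysis was possible because the tumor numbers tie no control tumor to a knockout tumor. Depth limits what can be said of *Csf3* and *Ly6g*.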
